A study of Homo sapiens with 6 samples.

Results

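The genes described here encode ubiquitin-specific proteases (USPs), the largest family of human deubiquitinases, and were measured in OVCAR3 cells. They were taken as all loci of the expression table with a symbol made of USP, a number and at most 1 further letter, except USP18. There were 50 such loci among 47577. In 3 or more of the 6 libraries, 43 of them had a value of 10 or above, as did 17568 loci in all. Of the other 7 genes, USP29, USP37 and USP9Y were listed at 0 in every library (USP37 and USP40 are usually widely expressed, and the table does not show whether their zeros and near-zeros reflect these cells or the counting), USP6, USP40 and USP50 stayed under the minimum in every library, and USP26 reached it in 1 library, with 11.4 in THZ531 replicate 2. Just inside the minimum was USP51, which reached it in the 3 DMSO libraries and in no THZ531 library. USP51 passed through the group in which it was higher, so it had to differ between the groups, and counts of lowered members are also given without it.

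OVCAR3 is an established line of human high-grade serous ovarian adenocarcinoma. All cells belonged to this 1 line, and the labels name no engineered allele. The control group received DMSO, the solvent, and the treated group received 200 nM THZ531, a dual inhibitor of the kinases CDK12 and CDK13, each for 6 h and each with 3 libraries. The titles and the treatment label of the samples name THZ531, whereas their treatment protocol names THZ1, and the compound is called THZ531 here after the titles. The sources do not say that the libraries of a group came from separate cultures, so p-values measure the spread between these libraries. The DMSO libraries held 60146046 to 70986130 reads assigned to genes and the THZ531 libraries 53054048 to 57953296. Every treated library thus held fewer assigned reads than every control. The 8 serous and epithelial markers checked were all above the minimum, and PAX8 was among the genes that fell. Among the markers of other cells, CD3E was listed at 0, DCN and LUM did not reach the minimum, and CD14, PTPRC and the 3 endothelial markers PECAM1, VWF and CDH5 did, at low values. The sum of the endothelial markers was 162 to 199 in DMSO and 213 to 299 in THZ531, with VWF raised (log2 0.73, limma adjusted p = 0.00742). The sum of the 4 fibroblast markers, nearly all of it COL1A1, was 989 to 1078 in DMSO and 2122 to 2409 in THZ531. The part of these markers in the results below was not tested.

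Ubiquitin is attached to proteins by ligases, as single units or as chains, and marks them for the proteasome, for sorting at membranes or for signalling on chromatin. USPs are cysteine proteases that remove it again, and single members are known for particular substrates, among them histones, DNA repair proteins, spliceosome subunits and membrane receptors. CDK12 and CDK13 phosphorylate the C-terminal domain of RNA polymerase II during elongation, and transcripts of long genes can end early, at poly(A) signals within introns, when these kinases are inhibited. The files analysed here hold 1 value per gene and do not show where a transcript ended.

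The hexamer AATAAA is the canonical poly(A) signal. It was searched on the sense strand of the introns of the representative GENCODE v44 transcript of each gene. Of the 43 USP genes, 42 have an intron and 40 hold an intronic AATAAA. The exceptions are USP21 and USP51, whose introns hold none, and USP27X, a gene of a single exon. In the first intron it was present for 34 of 42 USP genes (81.0%) and for 64.5% of 13953 expressed genes with an intron, at 0.748 and 0.825 copies per kb of first intron. The first copies of 5 genes are printed below with 12 bases on either side, in hg38 and 5′ to 3′, with the hexamer in capitals. These are USP20 and USP44, which fell, USP33, the closest relative of USP20, and USP3 and USP4, which rose. USP20, 1990 bases into intron 1, is at chr9:129837478-129837507 on the plus strand, and USP33, 1491 bases into intron 1, is at chr1:77758134-77758163 on the minus strand. USP44 is at chr12:95551097-95551126 on the minus strand, USP3 at chr15:63506707-63506736 on the plus strand and USP4 at chr3:49337598-49337627 on the minus strand, each in intron 1.
USP20: tagtcggcatccAATAAAtgtatttattgg
USP33: aaatattattggAATAAAatatttgacctg
USP44: ttgctatgtaaaAATAAAattgcaatagag
USP3: gctgataacaagAATAAActagtatgtggg
USP4: tagcctctacaaAATAAAaataaaaaaata

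A raised gene, a lowered gene and a gene that was not called all carry the hexamer in the first intron. Among the raised members 10 of 11 first introns held it, among those not called 21 of 26, and among the lowered members with an intron, USP51 included, 3 of 5. For all matched genes with an intron the shares were 66.5% of raised, 63.0% of those not called and 67.4% of lowered genes. A match is a description of the sequence and not evidence of use.

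Promoters from RefSeq (GRCh38.p14, 250 bases before to 50 after the gene start) were matched for 35 of the 43 genes. They are printed for the related pairs whose ratio moved far in each direction, USP20 with USP33 and USP4 with USP11. USP20 is at chr9:129835208-129835507 on the plus strand, USP33 at chr1:77759803-77760102 on the minus strand, USP4 at chr3:49340004-49340303 on the minus strand and USP11 at chrX:47232759-47233058 on the plus strand. Capitals mark, on either strand, the TATA motif TATAAA, the CCAAT box, the GC box GGGCGG, the E-box CACGTG, the core of the cyclic AMP element TGACGT and the ETS motif CCGGAA, and a GC box within a longer run is marked as part of that run.
USP20: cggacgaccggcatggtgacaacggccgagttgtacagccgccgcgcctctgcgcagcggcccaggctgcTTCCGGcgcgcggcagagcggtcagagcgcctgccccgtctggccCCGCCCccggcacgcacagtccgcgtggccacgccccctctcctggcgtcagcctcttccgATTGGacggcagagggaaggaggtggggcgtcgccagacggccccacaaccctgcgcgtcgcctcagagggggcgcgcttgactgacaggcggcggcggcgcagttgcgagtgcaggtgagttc
USP33: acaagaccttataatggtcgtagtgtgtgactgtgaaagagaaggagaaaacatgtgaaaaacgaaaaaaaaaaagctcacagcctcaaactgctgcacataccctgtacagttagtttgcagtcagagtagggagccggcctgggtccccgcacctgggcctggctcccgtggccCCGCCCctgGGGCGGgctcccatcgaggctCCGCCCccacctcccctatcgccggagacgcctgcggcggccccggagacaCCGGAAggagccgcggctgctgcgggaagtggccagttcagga
USP4: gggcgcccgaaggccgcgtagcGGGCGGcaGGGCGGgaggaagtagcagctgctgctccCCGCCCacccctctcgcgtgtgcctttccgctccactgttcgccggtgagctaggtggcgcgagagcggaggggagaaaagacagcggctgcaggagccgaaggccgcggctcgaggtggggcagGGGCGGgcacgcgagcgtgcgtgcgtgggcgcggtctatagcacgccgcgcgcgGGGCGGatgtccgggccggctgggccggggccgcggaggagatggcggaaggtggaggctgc
USP11: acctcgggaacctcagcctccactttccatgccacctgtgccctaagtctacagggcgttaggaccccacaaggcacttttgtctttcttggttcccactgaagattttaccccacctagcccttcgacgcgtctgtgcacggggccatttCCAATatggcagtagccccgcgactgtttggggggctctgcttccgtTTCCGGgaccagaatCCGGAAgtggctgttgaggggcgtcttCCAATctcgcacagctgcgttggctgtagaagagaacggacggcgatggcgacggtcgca

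The GC box was found in 29 of the 35 member promoters, in 69.2% of 11374 promoters of expressed genes and in 44.6% of all 27305 promoters. It was present for 6 of 7 raised and 3 of 4 lowered members, and no share by direction is given for expressed genes. The lowered members with it include USP2, whose matched window lies 17503 bases from the start of its locus. That window may not be the promoter of the transcripts measured. The ETS motif was found in 11 of the 35, against 28.1% of promoters of expressed genes, and the CCAAT box in 10, against 36.6%. The TATA motif was found in the promoter of 1 member, USP16, and in 6.11% of promoters of expressed genes. The E-box was present in 2 of the 35 (9.95% of promoters of expressed genes) and the cyclic AMP core in 4 (11.3%). USP20 and USP33 both carry a GC box and an ETS motif, and of the 2 only USP20 holds a CCAAT box.

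THZ531 raised 11 USP genes and lowered 6, and 26 were not called, at the thresholds of the study (1.5-fold or more with an unadjusted p no higher than 0.05, tested with limma on log2(value + 1)). The raised members were USP45, USP43, USP4, USP3, USP31, USP42, USP25, USP24, USP15, USP36 and USP1, with log2 fold changes of 0.61 to 1.12. The lowered members were USP44, USP20, USP51, USP27X, USP30 and USP2, from -2.24 to -0.68. The largest changes were decreases: USP20 and USP44 were lower by 4.27-fold and 4.73-fold, while no member rose by more than 2.17-fold. The share of members called, 39.5%, equalled the 39.5% of all loci tested. Raised members made up 25.6%, against 15.7% of all loci, and lowered members 14.0%, against 23.9%. Without USP51, 5 of 42 members (11.9%) were lowered. The median log2 fold change of the 43 members was 0.36 and that of all loci tested was -0.01.

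Most members that missed the fold threshold still differed by more than the error of the fit. At an adjusted p of at most 0.05 and any fold, limma called 40 of the 43 members, 29 higher and 11 lower, against 68.6% of all loci. Without USP51 it called 39 of 42, with 10 lower. The 3 not called were USP12, USP19 and USP2. The values of the groups did not overlap for 41 of 43 members, against 71.7% of all loci, the exceptions being USP19 and USP28, and for 40 of 42 without USP51. Just under the fold threshold were USP32 (-0.57), USP5 (0.54) and USP16 (0.54), and just above it USP1 (0.61) and USP36 (0.65). The replicates lay close together. The SD was at the median 4.36% of the mean in DMSO, and it was highest for USP44 in DMSO (28.5%) and USP51 in THZ531 (51.8%), both at low values.

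**Figure D1:**
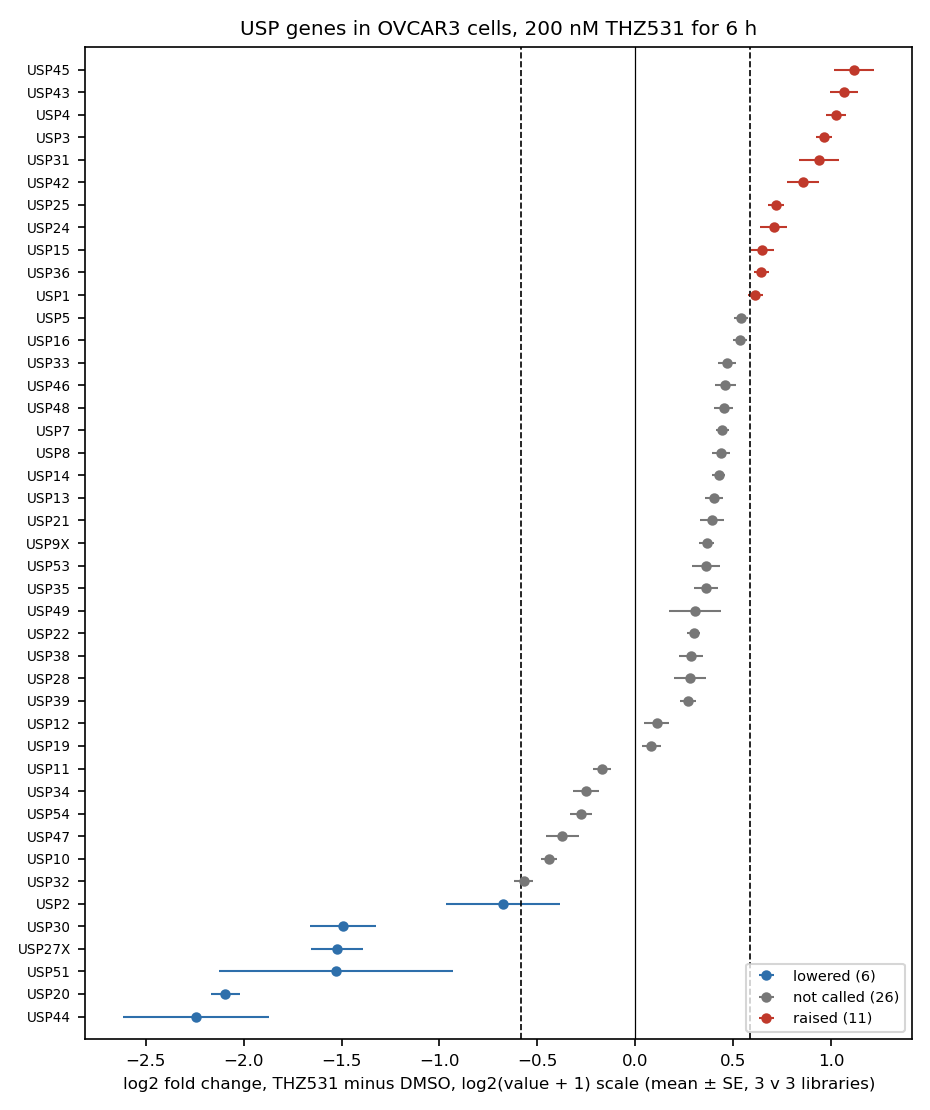
Log2 fold change (THZ531 minus DMSO, log2(value + 1) scale) of the 43 USP genes, ordered by size, with bars for the standard error from limma over 3 libraries a group and dashed lines at a 1.5-fold change. Points in red (11) were raised, points in blue (6) lowered and points in grey (26) not called. The 5 largest changes are all decreases, among them USP51, which the minimum bound to differ. Above 0 lie 31 points here, and 13 do after scaling to RPL34.

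These counts depend on how the libraries are scaled. The authors' size factors set the median locus near 0, although the summed value of all loci was 1.18-fold higher in THZ531. When every library was set to one common total, all values moved by -0.24 on the log2 scale, 6 members were raised (9.38% of all loci) and 9 lowered (32.0% of all loci). When RPL34, the qPCR reference of the study, served for scaling, values moved by -0.49, and only USP45 was raised (6.14% of all loci) while 12 members were lowered (42.8% of all loci). The number of members above 0 was 31, 29 and 13 under these scalings. The 6 members lowered under the authors' size factors were lowered under all of these scalings, whereas of the 11 raised members 6 were still raised with the same total. USP51, which the minimum bound to differ, is among these lowered members and in the counts of 9 and 12. The gap between the member median and the median of all loci was the same by construction, since a scaling moves every gene alike.

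**Figure D2:**
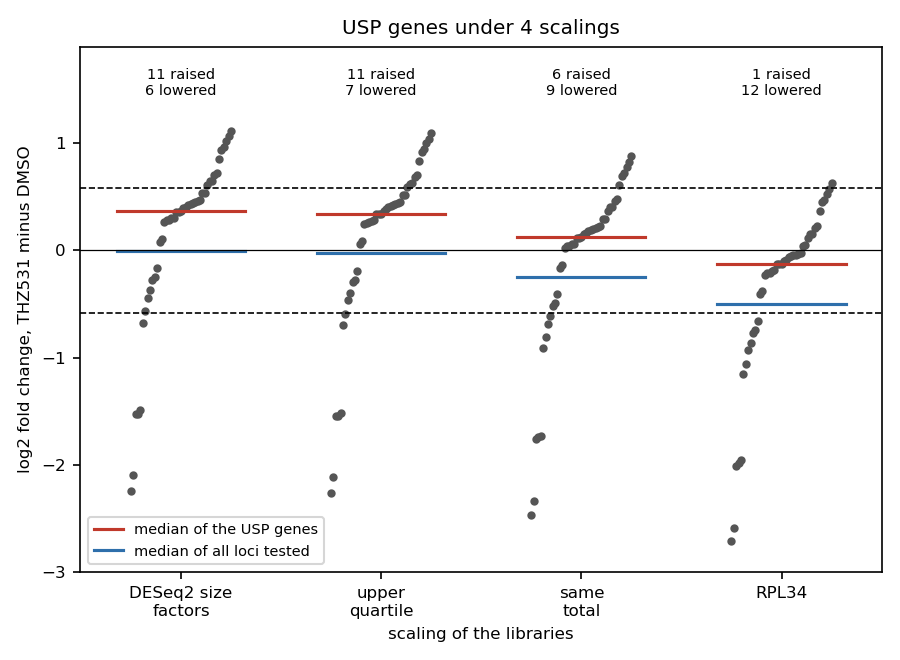
Log2 fold change (THZ531 minus DMSO) of the 43 USP genes, sorted within each column, under 4 scalings of the libraries, with red lines for the median of the members, blue lines for the median of all loci tested and dashed lines at a 1.5-fold change. The member median falls from 0.36 with the authors' size factors to 0.12 under a common total and -0.13 under RPL34. The 5 members lowered most, USP51 included, stand apart from the rest in each column.

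Of 10 members that act on histones and chromatin, 3 rose (USP3, USP42 and USP36), 3 were counted as lowered (USP44, USP27X and USP51, the last bound to differ by the minimum) and 4 were not called, beside 15.7% of all loci raised and 23.9% lowered. USP3 (chr15:63504592-63594639, hg38 as in the table), which removes ubiquitin from histone H2A, had values of 3044, 3100.1 and 3139.7 in DMSO and 6226, 6001 and 5920.5 in THZ531. The groups were far apart and the gene rose 1.95-fold (log2 0.97 ± 0.04 SE, limma adjusted p = 1.26e-11). USP42, linked to p53 and to transcription, was at 497, 504 and 549 in DMSO and 922, 1005 and 886 in THZ531. It rose 1.81-fold, with no overlap. USP36, a nucleolar member needed for ribosome production, was at 9391, 10166 and 10231 in DMSO and 15275, 15327 and 15967 in THZ531. It rose 1.56-fold and was no longer called with the same total or RPL34, at 0.40 and 0.15 on the log2 scale.

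USP22 is the deubiquitinase of the SAGA coactivator complex and removes ubiquitin from histone H2B, and USP27X and USP51 are relatives that bind the same partner proteins. USP22 had the highest value of the family, 33518, 33258 and 31865 in DMSO and 41082, 40654 and 39679.9 in THZ531. The groups did not overlap, and the log2 difference of 0.30 was under the fold threshold and turned to -0.19 with RPL34. USP27X (chrX:49879484-49882558) was at 381, 476 and 489.9 in DMSO and 157, 164 and 143 in THZ531. Every treated library lay below every control library, and the gene fell by 1.52 ± 0.13 on the log2 scale (SE, limma adjusted p = 4.25e-08). USP51 was near the detection limit, at 14.3, 20.4 and 12.8 in DMSO and 7.56, 5.68 and 2.28 in THZ531. It rested on 13 reads in the 3 THZ531 libraries together, and its log2 difference was -1.53 ± 0.60 (SE), which became -1.13 and was no longer counted as lowered without THZ531 replicate 3. No p is given for USP51, since the minimum fixed its direction. Reads from stretches that these 3 genes share could be split between them by the counting.

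USP44 (chr12:95516560-95551476), a histone H2B deubiquitinase also known from the spindle checkpoint, had the largest fold change, from 61.9, 84.4 and 47.9 in DMSO to 12.6, 17.1 and 9.10 in THZ531. All treated libraries were below all controls at a low level, with a log2 fold change of -2.24 ± 0.37 (limma adjusted p = 5.81e-05). Its relative USP49, which acts on the same histone, was at 204, 234 and 203 in DMSO and 248, 255 and 291 in THZ531, with a log2 difference of 0.31 ± 0.13 that turned to -0.18 with RPL34. The histone H2A enzymes USP16 and USP21 were not called, at 0.54 and 0.39. USP16 was at 6755, 6829 and 6756 in DMSO and 9928, 9729 and 9848 in THZ531. USP21 was at 1239, 1308 and 1209.6 in DMSO and 1625, 1748 and 1563 in THZ531. Both were higher in every treated library, and USP21 turned to -0.10 with RPL34.

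Of the 8 members with roles in DNA repair, replication and checkpoints, 2 rose, 6 were not called and none fell, beside 15.7% of all loci raised and 23.9% lowered. With RPL34, USP10, USP11 and USP47 were lowered, beside 42.8% of all loci lowered under that scaling. USP45 (chr6:99432325-99515432), which acts on the ERCC1 nuclease subunit, rose most in the family, from 272, 293 and 322 in DMSO to 641, 598 and 692 in THZ531. This was 2.17-fold (log2 1.12 ± 0.10 SE, limma adjusted p = 7.34e-08), the only increase still called with RPL34. USP1, which with UAF1 removes ubiquitin from FANCD2 and PCNA, rose 1.53-fold (log2 0.61 ± 0.04, limma adjusted p = 9.45e-10), with 6028 ± 127 in DMSO and 9223 ± 273 in THZ531 (SD, n = 3). It was not called with the same total (0.37) or RPL34 (0.12). The other members of this set spanned -0.44 to 0.45. USP11, which acts on the BRCA2 pathway, was at 4204, 3867 and 3914 in DMSO and 3519, 3502 and 3641 in THZ531. The groups did not overlap but the log2 difference was only -0.17, the third smallest of the family, though it was -0.66 and called lowered with RPL34. USP10, known for p53 and for stress granules, was at 9809, 9672 and 10626 in DMSO and 7374, 7242 and 7564 in THZ531. Its -0.44 missed the fold threshold and passed it under both a common total and RPL34, at -0.68 and -0.93.

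USP28 and USP25 are close relatives, and USP28 is known from the damage checkpoint and MYC stability. USP28 ranged widely, at 1349.6, 1149.7 and 1069 in DMSO and 1537, 1444 and 1340.2 in THZ531. DMSO replicate 1 lay above the lowest treated library, so the groups overlapped. USP25 was at 4805, 4847 and 5198 in DMSO and 8049, 8239 and 8184 in THZ531. It rose 1.65-fold, with no overlap, and was not called with the same total (0.48) or RPL34 (0.23). The p53 regulator USP7 and USP48 were both at 0.45 and not called, and turned to -0.047 and -0.041 with RPL34. USP47, which acts in base excision repair, was at -0.37 and not called, but lowered with the same total (-0.62) and RPL34 (-0.87).

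The 3 members tied to the spliceosome were all higher in each treated library, beside 71.7% of all loci without overlap in either direction. Of these members 2 passed the thresholds, beside 15.7% of all loci raised. USP4 (chr3:49277144-49340074), which acts with SART3 on a spliceosome subunit, was at 2140.4, 2003 and 1924 in DMSO and 4183, 4024 and 4132 in THZ531. It rose 2.03-fold (log2 1.02 ± 0.05 SE, limma adjusted p = 5.45e-11). USP15, its relative, was at 962, 993 and 977 in DMSO and 1545, 1556 and 1502 in THZ531. It rose 1.57-fold with no overlap, and its log2 value was 0.41 under a common total and 0.16 under RPL34, both not called. USP39, an inactive member that joins the tri-snRNP, was at 0.27, not called, and at -0.23 with RPL34. The 3′ end of the USP4 locus shares 766 bases with C3orf62, a gene on the same strand that went from 668, 671 and 688 in DMSO to 218, 283 and 223 in THZ531. The neighbour moved against USP4, and how reads in the shared stretch were assigned was not tested.

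A set of 9 members was listed under endosomes, membranes and organelles, among them USP2, for which another role is named below. Of the 9, 3 fell, 6 were not called and none rose, beside 23.9% of all loci lowered and 15.7% raised. USP20 (chr9:129835446-129881828), which is bound by VHL and acts on recycling receptors, was at 2248, 2228 and 1996 in DMSO and 472, 498 and 543 in THZ531. The highest treated library was far below the lowest control, a decrease of 4.27-fold (log2 -2.10 ± 0.07 SE, limma adjusted p = 1.59e-12). Its nearest relative USP33, with overlapping substrates, was at 3787, 3543 and 3776 in DMSO and 5294, 5103 and 4978 in THZ531. It moved the other way, at 0.47 and not called, and stood at -0.024 with RPL34. USP30 (chr12:109023089-109088023), which sits on the outer mitochondrial membrane and opposes Parkin, was at 338, 380.4 and 405 in DMSO and 103, 171 and 131 in THZ531. It fell by 1.49 ± 0.17 on the log2 scale (SE, limma adjusted p = 8.71e-07), with no overlap.

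USP2, linked to cyclin D1, was the weakest of the lowered members. It was at 73.8, 44.5 and 78.2 in DMSO and 42.8, 34.1 and 42.1 in THZ531, and DMSO replicate 2 lay just above the highest treated library. The log2 fold change was -0.68 ± 0.29 with an adjusted p of 0.0511 in limma, and the call was lost without DMSO replicate 1 (-0.57), DMSO replicate 3 (-0.53) or THZ531 replicate 2 (-0.57). USP19, anchored in the endoplasmic reticulum, changed least of all members, with 6427, 6045 and 5691 in DMSO and 6427, 6184 and 6614 in THZ531. The groups overlapped, and its log2 difference of 0.08 went to -0.16 under a common total and -0.41 under RPL34. The endosomal USP8 was at 0.44, USP35 at 0.36 and USP38 at 0.29, none of them called and all below 0 with RPL34. USP32, at -0.57, was lowered with edgeR, with the upper-quartile, common-total and RPL34 scalings and without DMSO replicate 2 or THZ531 replicate 3.

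The members that act at the proteasome or on free ubiquitin chains differed little in size from one another. None of the 3 was called, beside 39.5% of all loci. USP5, which takes apart free chains, was at 9162, 9353 and 9130.3 in DMSO and 13259.8, 13876 and 13088 in THZ531. Its log2 difference was 0.54 ± 0.04. USP13, its relative, was at 3012, 3167 and 2947 in DMSO and 3925, 4098 and 4051 in THZ531, a difference of 0.40 that turned to -0.089 with RPL34. USP14, bound to the proteasome, was at 0.43, and at -0.065 with RPL34. All treated libraries of these genes lay above all controls, beside 71.7% of all loci without overlap in either direction.

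The very large USP9X, USP24 and USP34 gave 1 raised gene, beside 15.7% of all loci raised. USP24 was at 1328, 1139 and 1243 in DMSO and 2028, 2176 and 1856 in THZ531, and rose 1.63-fold, though it was not called with the same total (0.46) or RPL34 (0.21). USP9X was at 4079, 3985 and 4003 in DMSO and 5061, 5275 and 5204 in THZ531. Its log2 difference of 0.36 is the median of the family and was -0.13 with RPL34. USP34, which acts on axin in WNT signalling, was at 1041, 1004 and 1017 in DMSO and 819.9, 862 and 889.7 in THZ531, a difference of -0.25 that did not reach the fold threshold but became -0.75 and was called lowered with RPL34. USP12 and USP46, which like USP1 depend on UAF1, were at 0.11 and 0.46 and not called. USP12 was at 1104, 1170.1 and 1178 in DMSO and 1275, 1192 and 1261 in THZ531, without overlap but within the limma error (adjusted p = 0.13), and at -0.13 with the same total. USP46 was at 1537, 1448 and 1502 in DMSO and 2097, 1995 and 2081 in THZ531, and at -0.033 with RPL34.

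USP43 and USP31, related enzymes with few known substrates, both rose. USP43 (chr17:9645262-9729687) was at 804, 824 and 733 in DMSO and 1651, 1769.8 and 1528 in THZ531, 2.09-fold higher. USP31 was at 255, 297 and 294 in DMSO and 525, 549 and 549 in THZ531, 1.92-fold higher. No library of either gene overlapped with the other group. USP53 and USP54, long classed as lacking protease activity, lay on opposite sides of 0. USP53 was at 1004, 882 and 919 in DMSO and 1155, 1173 and 1279.9 in THZ531, a difference of 0.36 that turned to -0.13 with RPL34. USP54 was at 1805, 1815 and 1751 in DMSO and 1534, 1419 and 1481 in THZ531, a difference of -0.28, and neither gene was called, though USP54 was lowered with RPL34, at -0.77. USP54 overlaps PPP3CB-AS1 on the other strand, which was lower in THZ531 as well, at -1.30. The libraries were stranded, but the sources used here do not say whether the counting used the strand. Whether reads of one gene were counted for the other was not tested.

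**Figure D3:**
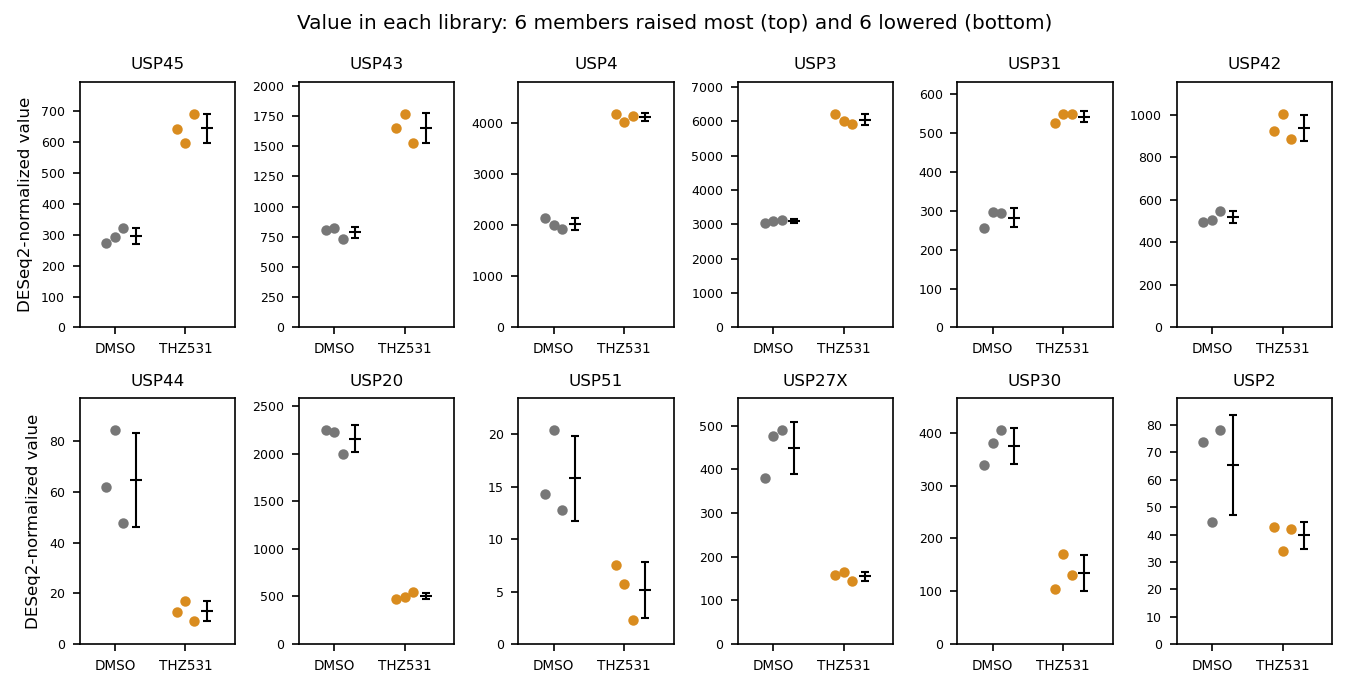
DESeq2-normalized value (linear axis from 0, a separate scale for each gene) in each of the 3 DMSO (grey) and 3 THZ531 (orange) libraries for the 6 members raised most, in the upper row, and the 6 lowered, in the lower row, with the mean and SD beside the points. The groups are apart for every gene shown, which the minimum fixed for USP51. They are only narrowly apart for USP2, whose lowest control was 44.5 and highest treated library 42.8. With RPL34 only USP45 of the upper row is still called.

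Related USP genes were also compared within each library, since a log2 ratio of 2 genes in the same library does not depend on the scaling. Of 18 pairs listed 17 could be measured, as USP6 was not above the minimum. The ratios of the groups did not overlap for 15 of the 17. No share is given for other pairs of genes, and 71.7% of all single loci did not overlap. Whether the count is particular to related USP genes was not tested. With 3 libraries a group the smallest p of the two-sided exact permutation test is 0.1, which these 15 pairs reached (Benjamini-Hochberg adjusted p = 0.113 over 17 pairs), so no pair could pass 0.05. The mean ratio moved by at least 1 log2 unit in 5 pairs.

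The largest shift was in USP20 against USP33. The log2 ratio was -0.75, -0.67 and -0.92 in DMSO and -3.48, -3.35 and -3.20 in THZ531, a difference of -2.56. The pair was within 1 log2 unit in the controls and more than 3 units apart after treatment. USP44 against USP49 went from -1.70, -1.46 and -2.06 to -4.20, -3.82 and -4.85, a difference of -2.55. USP22 against USP27X went from 6.45, 6.12 and 6.02 to 8.02, 7.95 and 8.10, a difference of 1.82. In each of these pairs the gene that fell was the one with the lower value in DMSO.

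USP4 against USP11 changed sign, from -0.97, -0.95 and -1.02 in DMSO to 0.25, 0.20 and 0.18 in THZ531, a difference of 1.19. USP4 had the lower value in every control library and the higher value in every treated library. USP15 against USP11 shifted by 0.82 and USP4 against USP15 by 0.37, so USP4 and USP15 moved further from each other while USP15 came closer to USP11, which stayed the higher of that pair. USP2 against USP21 shifted by -1.07, with the ratio in DMSO replicate 2 (-4.85) nearest to the treated range. USP53 against USP54 (0.64), USP9X against USP34 (0.62) and USP16 against USP45 (-0.58) moved by smaller amounts. The ratios of USP31 to USP43 and USP35 to USP38 overlapped between the groups (exact permutation p = 0.3 and 0.4), with differences of -0.12 and 0.08.

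**Figure D4:**
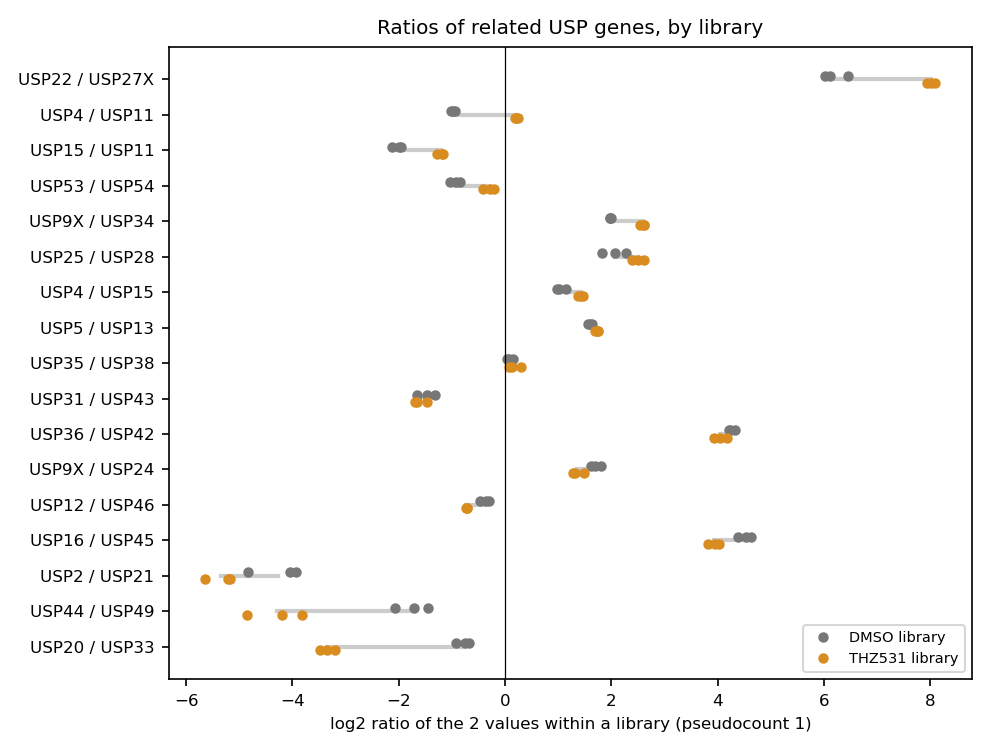
Log2 ratio of the values of 2 related USP genes within each library (pseudocount 1) for the 17 pairs measured, with grey points for the 3 DMSO and orange points for the 3 THZ531 libraries and a grey bar joining the group means. The points of the groups are apart in 15 pairs, most widely in USP20 / USP33, USP44 / USP49 and USP22 / USP27X, and they overlap in USP31 / USP43 and USP35 / USP38. No share is given for other pairs of genes.

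Levels of different genes were compared as the value per kb of exon, over the union of GENCODE v44 exons. USP22 had the highest level in both groups, at 4852 in DMSO and 5972 in THZ531, and took 20.0% to 20.9% of the summed USP values in the controls and 19.5% to 20.0% in the treated libraries. It was followed in DMSO by USP5 (2479), USP10 (1977), USP14 (1719) and USP1 (1558). In THZ531 the order after USP22 was USP5 (3606), USP1 (2384), USP14 (2312), USP16 (1727) and USP36 (1675), and USP10 stood at 1457. At the lower end were USP51 (3.41 in DMSO), USP44 (12.1), USP2 (14.5) and USP49 (19.5). Of the lowered members USP20 had the highest control level per kb, 391, which became 91.5. The summed value of the 43 members was 1.27-fold higher in THZ531.

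**Figure D5:**
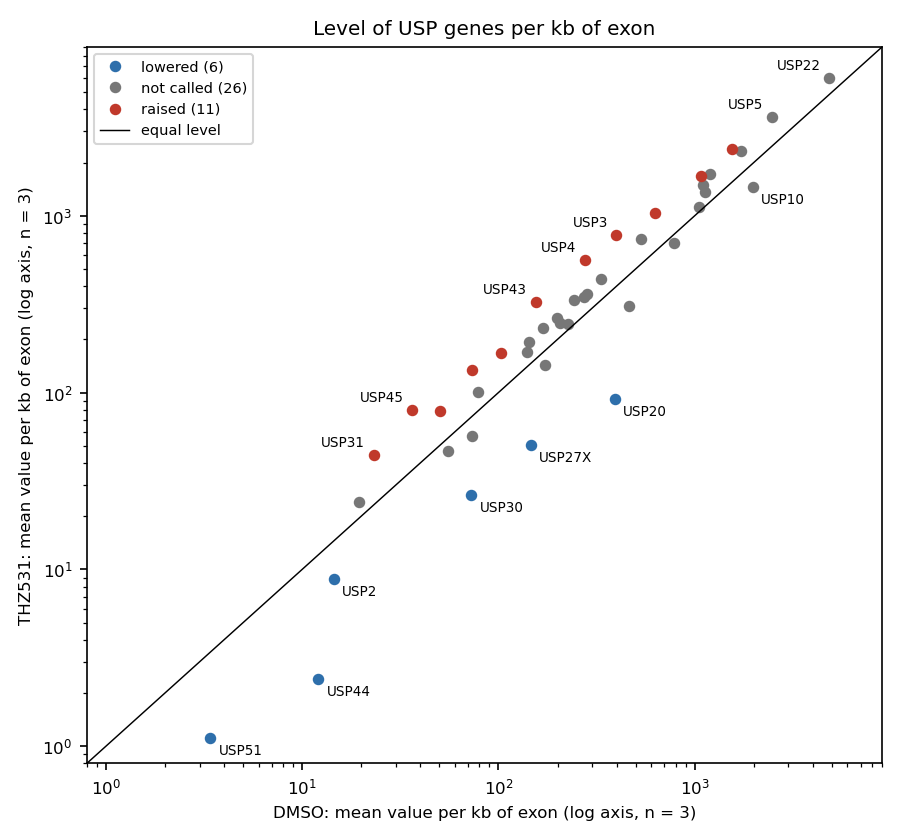
Mean value per kb of exon of the 43 USP genes in DMSO (x axis) and THZ531 (y axis), both on log axes and over 3 libraries, with red points for raised, blue for lowered and grey for members not called, and a line of equal level. USP22 is highest on both axes, and USP20, USP27X, USP30, USP44 and USP51 lie well below the line, while the red points lie above it under the authors' size factors.

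Gene structure is given as a description, without a test, since the groups of raised and lowered members are small. The gene span in GENCODE v44 was at the median 88.1 kb for the 11 raised members and 78.8 kb for the 26 not called. For the 6 lowered, USP51 included, it was 30.7 kb. For all matched genes these medians were 30.8, 30.2 and 31.5 kb, so the USP genes as a family were longer than most (median 68.3 kb against 30.6 kb). Span and log2 fold change had a Spearman correlation of 0.224 over the 43 members and -0.0512 over 14589 genes, a description only, since the genes share the same libraries. The longest members, USP34 (283.6 kb) and USP32 (245.1 kb), were not called, at -0.25 and -0.57, and the next longest, USP15 (157.1 kb), rose. The shortest were USP27X (3.08 kb, 1 exon) and USP51 (5.23 kb, 3 exons), both lowered, and USP21 (6.27 kb), which was not called. USP20, USP30 and USP44 span 47.1, 64.9 and 34.9 kb.

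Of 37 further deubiquitinases and related genes listed, a list not limited to enzymes that remove ubiquitin, 35 were tested. Of these, 11 rose, 7 fell and 17 were not called, beside 15.7% of all loci raised and 23.9% lowered. Their median log2 fold change was 0.28, against -0.01 for all loci tested. OTUD1 (1.77) and OTULIN (1.20), which cleaves linear chains, rose most next to the USP-related USPL1 (1.13). STAMBPL1 (-2.09), PAN2 (-1.92) and MINDY1 (-1.67) fell most. Among 14 genes for UAF1, SAGA partners and ubiquitin itself, 1 rose, 1 fell and 12 were not called, with a median of 0.34. WDR48, which encodes UAF1, was at 0.43 and not called, and its partner WDR20 rose (log2 0.88, limma adjusted p = 5.89e-09). The SAGA partners shared by USP22, USP27X and USP51 were not called, ENY2 at 0.42 and ATXN7L3 at -0.35, while ATXN7L1 fell (log2 -2.03, limma adjusted p = 7.67e-06).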

How the data were processed

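PolyA plus RNA-seq was analysed for OVCAR3 cells, 3 libraries with DMSO and 3 with THZ531. Per the labels and the methods of the study, the authors built stranded libraries, aligned reads with STAR (2.7.5a in the submitters' processing notes) to the hg38 assembly, used featureCounts for the genes of FAST DB, and normalized with DESeq2. The deposited values are a signal: reads of a gene over the size factor of its library, without correction for length. All 6 value columns were used. Whole numbers of reads were recovered from 100% of the values of every library (tolerance 0.1 reads), and the depth is given in the report.

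The values were tested as log2(value + 1) with limma 3.58.1 (trended variance, no covariates) in R 4.3.3 over the 17568 loci that reached 10 in 3 or more libraries, with Benjamini-Hochberg adjustment over all of them. Fold changes are on this scale, which understates changes of low genes. The recovered reads were also tested with edgeR 4.0.16 and DESeq2 1.42.0. The scripts were checked on simulated counts with known changes. Ratios of related genes were tested with an exact permutation test in scipy 1.17.1. Gene structure came from GENCODE v44 (43 of 43 members and 95.5% of expressed symbols matched) and promoters from RefSeq. Alternatives were the pseudocount, the minimum, the scaling, the tool, the thresholds, a replicate block and leaving out each library.

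All members past the minimum could be named. Values in every library were given for the 6 members called in each direction with the largest change, the 3 with the smallest change, the 3 with the highest value per kb and both genes of each pair whose ratios do not overlap, and other members by their fold change. Members, gene lists, pairs and tests were chosen with earlier results of these data known. Sequences of proteins were not used here.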

Additional observations from a re-analysis of the deposited data

How the results depend on the processing

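The 43 USP genes gave 672 alternative results with the same direction and call, 20 with the call lost, 13 with a call gained and 20 turned. When every library was set to a common total, 6 USP genes were raised and their median log2 fold change was 0.12. Of the further deubiquitinases and related genes 7 were raised, and of the UAF1, SAGA and ubiquitin genes 2 were lowered. With RPL34, 6.14% of all loci were raised and 42.8% lowered. Of the USP genes 1 was raised and 12 lowered under this scaling, USP51 among the lowered, with a median of -0.13. Of the further deubiquitinases and related genes 3 were raised and 12 lowered. Of the UAF1, SAGA and ubiquitin genes 0 were raised and 4 lowered. The values that turned with RPL34 were USP7 (-0.047), USP8 (-0.055), USP9X (-0.13), USP12 (-0.38), USP13 (-0.089), USP14 (-0.065), USP19 (-0.41), USP21 (-0.10), USP22 (-0.19), USP28 (-0.21), USP33 (-0.024), USP35 (-0.13), USP38 (-0.21), USP39 (-0.23), USP46 (-0.033), USP48 (-0.041), USP49 (-0.18) and USP53 (-0.13), and with a common total USP12 (-0.13) and USP19 (-0.16), in each case because the scaling moves all genes alike. A minimum value of 50 left 3 lowered genes and a median of 0.40, since it removed USP2, USP44 and USP51. A fold change of at least 2 left 3 raised and 5 lowered genes, USP51 among the lowered. An adjusted p of at most 0.05 with no fold threshold gave 29 and 11, the latter 10 without USP51, beside 68.6% of all loci in either direction. With edgeR 11 were raised and 7 lowered, and with DESeq2 11 and 6, USP51 among the lowered in both. Leaving out each library in turn gave 11 raised in every case, 4 to 6 lowered and a median of 0.35 to 0.42, and 1 to 2 raised UAF1, SAGA and ubiquitin genes. USP51 was not tested without any 1 of the DMSO libraries, since it then missed the minimum. Related pairs without overlap numbered 15 or 16 throughout, with no share given for other pairs of genes. No share of all loci is given for the higher minimum, the 2-fold threshold, edgeR, DESeq2 or the fits with a library left out.

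The replicate number as a block gave 11 raised and 6 lowered USP genes and changed no call. Deviations from the group means of libraries with the same number correlated at 0.0017, 0.0186 and -0.0393, and not every library correlated best with its own number. These values show no sign that the numbers pair the libraries, but with 3 libraries a group they cannot settle it. Depth limits USP51, USP44 and USP2, whose THZ531 libraries held 2 to 37 reads.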

Other observations

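Several loci overlap USP genes and are counted separately. C2orf68, which lies within the USP39 locus on the other strand, went from 2406, 2465 and 2278 in DMSO to 1109.6, 979 and 1036 in THZ531, a log2 fold change of -1.19 (limma adjusted p = 1.01e-10), beside 0.27 for USP39. RNF181, within the same locus and on the same strand, was at 0.17 and not called. The USP39 locus of the table starts 10060 bases from the promoter window of RefSeq, so it spans more than the gene itself. AHSA2P, which overlaps the end of USP34 on the other strand by 3737 bases, fell by 0.71 on the log2 scale (limma adjusted p = 8.87e-08), beside -0.25 for USP34. ZNF232, which overlaps the unexpressed USP6 by 7085 bases, fell by 1.92. THOC1 and DKK3, which overlap USP14 and USP47 on the other strand, were at -0.02 and 0.08, and neither was called. Of the 43 members, 10 were overlapped by another tested locus.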
